A study of Mus musculus with 3 samples.

Results

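A set of collagen-expressing stromal cells with high Spp1 was described in mouse bladder assembloids, cultures in which bladder epithelium is combined with stromal cells. The 3 single-cell libraries were a 7-day assembloid library (a pool of 3 assembloids), a 1-day assembloid library (a pool of 3 assembloids) and a bladder library. The bladder library was made of whole bladder from wild-type C57BL/6 mice aged 8 to 9 weeks (a pool of 8 bladders). For the assembloids the labels name no strain or age, and the pooled units cannot be separated. A cell belonged to the set when Spp1, Gzme and Mcpt8 together made up at least 20 of every 10000 mouse UMIs (unique molecular identifiers, counted molecules) and Col1a1 and Col1a2 together at least 10. It also had no Ptprc UMI, Crabp1 under 5 per 10000, and fewer than 10 UMIs of the 6 cell cycle genes Top2a, Mki67, Birc5, Cdk1, Ube2c and Prc1. The rule took 799 of 16912 assembloid mouse cells, 271 of 8374 at 7 days and 528 of 8538 at 1 day. It took 5 of 7013 bladder cells. These cells are called Spp1-high cells in the text and members in the plots.

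Osteopontin, the product of Spp1, is a secreted phosphoprotein of the matrix that binds integrins and CD44 and is known from bone, macrophages and remodelling tissue. Gzme and Mcpt8 encode granule serine proteases. Granzymes are known from cytotoxic lymphocytes, and Mcpt8 is a protease of mouse basophils. In the mouse these genes lie in 1 cluster on chromosome 14. Bladder stroma is built of fibroblasts and smooth muscle beneath the urothelium, and supplies it with matrix and signals.

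Spp1-high cells were 3.24% [2.87 to 3.64] of mouse cells at 7 days and 6.18% [5.68 to 6.72] at 1 day, against 0.0713% [0.0232 to 0.166] in bladder. Stromal cells that met the same Col1a1 and Col1a2, Ptprc and cell cycle clauses were also counted. Of these, Spp1-high cells were 7.09% at 7 days and 11.3% at 1 day, against 0.215% in bladder. Brackets hold 95% exact binomial or Poisson intervals and cover counting error only. Each group had 1 library, so no test between groups was possible, and neither cells nor genes stand in for replicates. The libraries held about 120302000 UMIs at 7 days, 135956000 at 1 day and 93560600 in bladder. Among cells with at least 10000 UMIs the share was 6.28% at 7 days and 8.54% at 1 day, so the gap between the assembloid libraries moved with the depth of the cells counted. Some cell barcodes occurred in more than 1 library: 114 in the 7-day and 1-day libraries, 30 in the 7-day and bladder libraries and 21 in the 1-day and bladder libraries. They included 1 Spp1-high cell at 7 days and 4 at 1 day. Scrublet called 2.58% of Spp1-high cells doublets at 7 days and 3.79% at 1 day, close to the 2.41% and 3.28% of the whole libraries.

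The stromal cells the rule passed over, cycling cells left out, were taken in 2 sets. Crabp1-low stroma below the score threshold held 3457 cells at 7 days and 3979 at 1 day. Crabp1-high stroma, taken at any score, held 94 and 169. Before the cell cycle limit, 15 Crabp1-high cells at 7 days and 16 at 1 day reached the score threshold. The median depth of Spp1-high cells was 25827 UMIs at 7 days and 17537 at 1 day. It was 14425 and 17454 in other Crabp1-low stroma, 29484.5 and 17836 in Crabp1-high stroma, and 5325 in bladder stroma. The rule score ran without a gap through the threshold. At 7 days 55 cells scored from 15 to 20 and 40 cells from 20 to 25, and at 1 day the counts were 110 and 83.

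**Figure D1:**
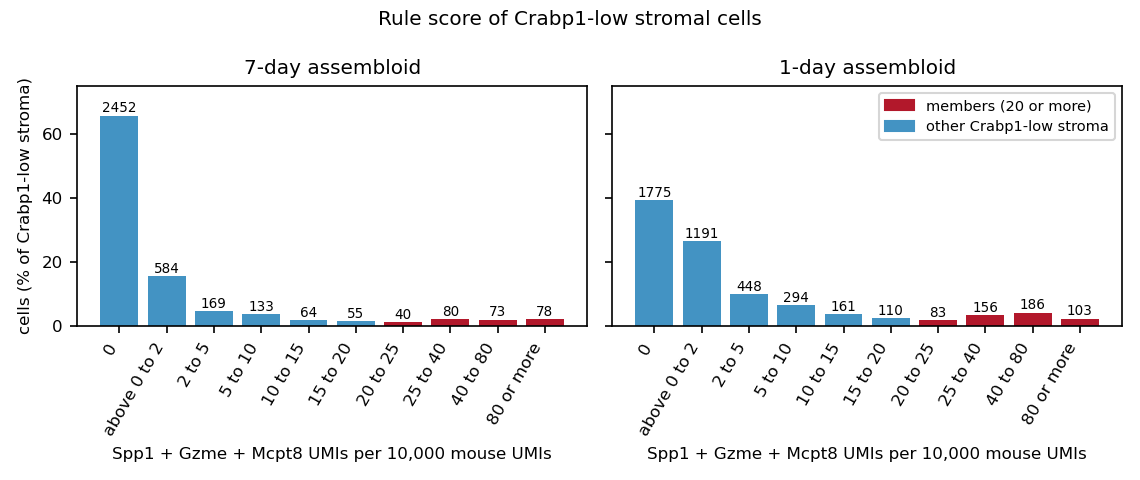
Share of Crabp1-low stromal cells (percent of the library's Crabp1-low stroma, vertical axis) in each bin of the rule score (horizontal axis), with cell counts above the bars, at 7 days (left) and 1 day (right). Red bars are members and blue bars other Crabp1-low stroma, and the bars on both sides of 20 are of similar height.

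The score was almost wholly Spp1. Spp1 had the most UMIs of the 3 rule genes in 270 of 271 Spp1-high cells at 7 days (99.6%) and in 525 of 528 at 1 day (99.4%). The median share of Spp1 in the UMIs of the trio was 100% in both libraries. Spp1 stood at 6472 CPM (summed UMIs of the gene, scaled to the mouse UMIs of the set) in Spp1-high cells at 7 days and 6004 CPM at 1 day. It stood at 155 and 217 CPM in other Crabp1-low stroma, 470 and 453 CPM in Crabp1-high stroma, and 4.67 CPM in bladder stroma (0.503 CPM without the 5 cells that met the rule). Per cell, Spp1 ranged from 13.3 to 432 per 10000 UMIs at 7 days with a median of 43.8, and from 0 to 538 at 1 day with a median of 42.1. These levels follow from the rule and are given as a description.

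Spp1 at this level was not limited to the set. Cells with a Ptprc UMI and with Col1a1 and Col1a2 below the minimum of the rule numbered 66 at 7 days and 56 at 1 day. They held Spp1 at 4916 and 5424 CPM, with 0 UMIs of Gzme, Mcpt8 or Gzmd in either library. A Spp1 UMI was found in 38 of these cells at 7 days (57.6%) and in 54 at 1 day (96.4%). The summed level at 7 days therefore does not describe each cell. Cells that met every other clause of the rule, score threshold included, but were left out for cycling numbered 141 at 7 days and 212 at 1 day. These cycling cells held Spp1 at 5335 and 4955 CPM, Gzme at 118 and 72.2 CPM, and Mcpt8 at 147 and 123 CPM. Their levels follow from the score and are a description only. Free RNA in the droplets can give UMIs in cells that do not express a gene, and its part here was not tested. In urothelial cells Spp1 was 13.01 CPM at 7 days and 28.01 CPM at 1 day, with a UMI in 11.5% and 13.7% of cells at median depths of 8379.5 and 4903 UMIs.

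Gzme, the other gene in the name given to these cells, was present in a minority of them. A Gzme UMI was found in 85 Spp1-high cells at 7 days, 31.4% [25.9 to 37.3], and in 153 at 1 day, 29.0% [25.1 to 33.1]. The share was 2.20% and 3.69% in other Crabp1-low stroma and 0.190% and 0.294% in urothelial cells. With every cell thinned to 5000 UMIs, which kept 267 Spp1-high cells at 7 days and 510 at 1 day, the share was 16.9% and 17.1% in Spp1-high cells and 1.21% and 1.51% in other Crabp1-low stroma. In CPM, Gzme stood at 124 and 115 in Spp1-high cells, 5.67 and 5.70 in other Crabp1-low stroma, and 6.12 and 20.6 in Crabp1-high stroma. The label Gzme therefore describes fewer than 1 cell in 3 at 7 days and at 1 day at the depth reached.

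Mcpt8, mast cell protease 8, was also found in a minority. It had a UMI in 41.7% [35.8 to 47.8] of Spp1-high cells at 7 days and 34.5% [30.4 to 38.7] at 1 day, against 2.57% and 4.20% of other Crabp1-low cells. Its level was 109 and 108 CPM in Spp1-high cells and 4.37 and 4.60 CPM in other Crabp1-low stroma. Since Gzme and Mcpt8 are part of the score, these differences are descriptions too.

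Gzme and Mcpt8 were detected together more often in cells with Gzme than without, among cells that both genes helped to choose. At 7 days 68 of the 85 Spp1-high cells with Gzme also had Mcpt8, 80% [69.9 to 87.9], against 24.2% [18.2 to 31.0] of the 186 cells without Gzme. At 1 day it was 108 of 153 cells, 70.6% [62.7 to 77.7], against 19.7% [15.8 to 24.1] of 375. Many cells had only 1 of the genes: Mcpt8 without Gzme in 45 cells at 7 days and 74 at 1 day, and Gzme without Mcpt8 in 17 and 45. After thinning to 5000 UMIs the shares were 51.1% against 16.7% at 7 days and 54.0% against 15.6% at 1 day. Depth differed between the cells compared, and thinning kept the order. In other Crabp1-low stroma, which the rule holds to low scores, 52.6% of cells with Gzme had Mcpt8 at 7 days and 37.4% at 1 day, against 1.45% and 2.92% of cells without Gzme.

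**Figure D2:**
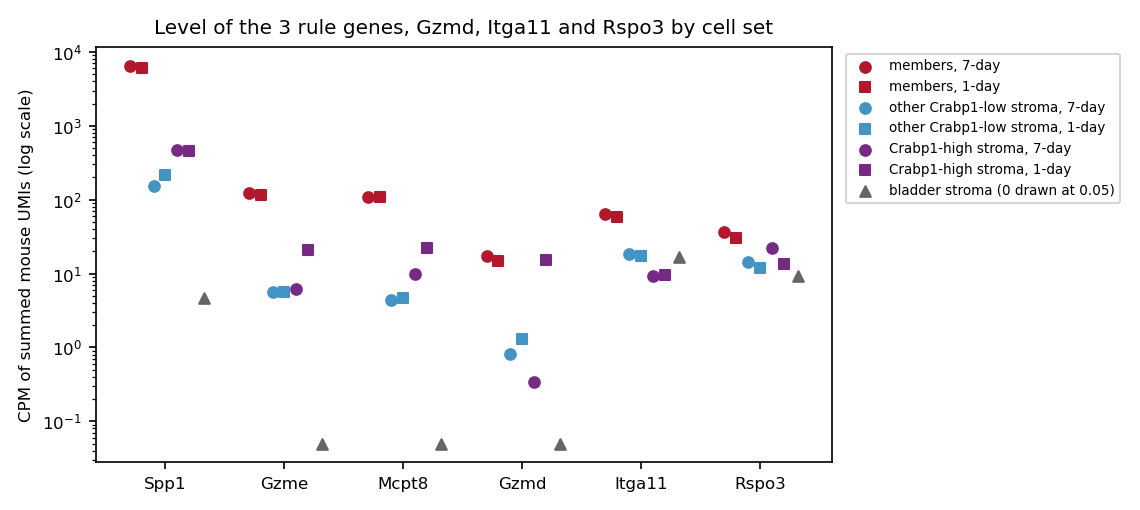
Level in CPM (log scale, vertical axis) of 6 genes in members, other Crabp1-low stroma, Crabp1-high stroma and bladder stroma, with circles for the 7-day and squares for the 1-day library and triangles for bladder. The members of both libraries lie together for each gene, and Gzme, Mcpt8 and Gzmd had 0 UMIs in bladder stroma.

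Gzmd, granzyme D, was no part of the rule and lies next to Gzme. It stood at 17.1 CPM at 7 days (125 UMIs in 23 cells) and 14.99 CPM at 1 day (141 UMIs in 34 cells), against 0.826 and 1.30 CPM in other Crabp1-low stroma. Of these Spp1-high cells, 22 of 23 at 7 days and 30 of 34 at 1 day also had Gzme. The 5 cells with most Gzmd held 64.8% of its UMIs at 7 days and 62.4% at 1 day, so few cells set its level. In Crabp1-high stroma Gzmd was 0.340 CPM at 7 days (1 UMI) and 15.2 CPM at 1 day, where 2 cells held its 48 UMIs. Gzme and Gzmd are near copies: their first-numbered listed transcripts were identical at 90% of aligned bases and the last 300 bases of these at 84%. Reads of one could be counted for the other, and the split between them is uncertain.

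The granzyme and mast cell protease cluster spans chr14:55941451-56262260 (mm10, GENCODE vM21), and 15 of its genes were in the list examined. At least 1 UMI was found in Spp1-high cells for 9 of them at 7 days and 12 at 1 day, and in bladder stroma for 3. Cma2, a chymase gene, had 25 UMIs at 7 days and 36 at 1 day, which is 3.42 and 3.83 CPM, against 0.165 and 0.215 CPM in other Crabp1-low stroma. Mcpt1, mast cell protease 1, had 22 UMIs in each library, 3.01 and 2.34 CPM, against 0.0551 and 0.186 CPM. Mcpt9 had 11 and 14 UMIs, against 4 and 0 in the larger set of other Crabp1-low cells. Gzmc had 6 UMIs at 7 days and 23 at 1 day. Gzmb, the granzyme of cytotoxic T cells, had 1 and 2 UMIs, Gzmf and Ctsg had 0 in both, and Gzmg had 0 in both. None of these other genes reached 20 CPM, the level from which a ratio was read. In bladder stroma Gzme, Mcpt8 and Gzmd had 0 UMIs; in its 2322 cells outside the rule this allows a share of cells with a UMI of up to 0.159%.

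Gzme lies at chr14:56117626-56120625, Gzmd at chr14:56129556-56132608 and Mcpt8 at chr14:56082166-56085273, each on the minus strand, and Spp1 at chr5:104435118-104441050 on the plus strand. Their upstream sequences are shown for the 3 genes of the score and for Gzmd, the near copy of Gzme. The sequences are RefSeq's (GRCm38.p6), 5′ to 3′ on the gene's strand, and end before the first base of the GENCODE gene model. Capitals mark TGTGGT, the core word of RUNX factors, on either strand (ACCACA is its reverse complement), and the AT-rich word TTTAAA. Gzme, chr14:56120626-56120875, Gzmd, chr14:56132609-56132843, Mcpt8, chr14:56085274-56085447, and Spp1, chr5:104434861-104435110, read as follows.
Gzme: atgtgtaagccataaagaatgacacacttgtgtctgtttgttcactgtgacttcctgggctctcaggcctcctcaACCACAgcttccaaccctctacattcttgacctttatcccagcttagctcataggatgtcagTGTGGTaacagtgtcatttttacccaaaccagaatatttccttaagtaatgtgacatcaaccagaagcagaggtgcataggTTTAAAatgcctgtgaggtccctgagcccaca
Gzmd: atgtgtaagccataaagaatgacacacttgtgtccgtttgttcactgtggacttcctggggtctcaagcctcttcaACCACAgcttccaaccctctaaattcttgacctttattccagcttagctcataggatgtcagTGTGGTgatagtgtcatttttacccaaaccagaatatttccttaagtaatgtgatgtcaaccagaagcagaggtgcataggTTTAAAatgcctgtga
Mcpt8: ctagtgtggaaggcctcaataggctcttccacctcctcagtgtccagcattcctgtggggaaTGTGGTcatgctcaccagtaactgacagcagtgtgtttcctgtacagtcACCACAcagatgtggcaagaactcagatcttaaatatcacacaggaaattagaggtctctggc
Spp1: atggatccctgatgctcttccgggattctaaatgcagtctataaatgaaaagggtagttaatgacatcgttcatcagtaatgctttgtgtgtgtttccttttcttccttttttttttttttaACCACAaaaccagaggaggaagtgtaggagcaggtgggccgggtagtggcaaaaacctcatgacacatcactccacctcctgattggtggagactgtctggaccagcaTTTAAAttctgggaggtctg

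Over the 250 bases before the RefSeq start, TGTGGT occurred 2 times in Gzme, Gzmd and Mcpt8 and 1 time in Spp1. At least 1 was found in 14.2% of 27025 mouse promoters of the same length and at least 2 in 1.26%. TTTAAA occurred 1 time in each of the 4, at -32 in Gzme, -31 in Gzmd, -50 in Mcpt8 (past the end of the run printed) and -20 in Spp1, and in 12.1% of promoters. The AP-1 word TGANTCA, searched on both strands, was found in none of these 4 windows and in 6.87% of promoters. The words were picked after the sequences had been read, and a match is only a match of letters. The Gzme and Gzmd windows were identical at 94.8% of aligned bases, and those of Gzme and Mcpt8 at 46%.

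The marker lists were then read. All 15 fibroblast markers had a UMI in both libraries, with a summed level of 10205 CPM at 7 days and 9309 CPM at 1 day, against 16293 and 11199 CPM in other Crabp1-low stroma and 44488 CPM in bladder stroma. Col1a1 and Col1a2, which the rule uses, made up 3721 and 2823 CPM of it at 7 days and 3420 and 2554 CPM at 1 day. Of the 11 fibroblast markers measured outside the rule, Dcn, Lum, Pdgfra and Fbln1 were at least 2-fold lower than in other Crabp1-low stroma and 0 were higher. The 11 smooth muscle markers summed to 12834 and 12843 CPM, mostly Acta2 at 6940 and 6792 CPM and Tagln at 4732 and 4783 CPM. Acta2 and Tagln encode the actin and the calponin-like protein of contractile cells. The same 11 markers summed to 14802 and 17822 CPM in other Crabp1-low stroma and 14561 and 15427 CPM in Crabp1-high stroma. Their sum in bladder stroma was 5149.5 CPM. Myh11, the myosin of mature smooth muscle, was 9.71 and 10.1 CPM in Spp1-high cells. The 12 mast cell and basophil markers summed to 5.61 and 7.97 CPM, with Cpa3, Fcer1a, Ms4a2, Hdc, Tpsb2, Tpsab1 and Il4 at 0 in both libraries. The 15 T and NK cell markers summed to 11.6 and 3.72 CPM, with Cd3e, Cd3d, Cd3g, Nkg7, Ncr1, Gzma, Gzmk, Prf1 and Cd2 at 0 in both. The 10 trophoblast and decidua markers summed to 0.137 and 1.49 CPM. The 12 myeloid markers, Ptprc included, summed to 46.24 CPM at 7 days and 24.974 CPM at 1 day in Spp1-high cells. Their sum was 24.835 and 24.956 CPM in other Crabp1-low stroma, and 8.497 and 5.695 CPM in Crabp1-high stroma. The myeloid sum was thus above that of other Crabp1-low stroma at 7 days and close to it at 1 day. The 12 urothelial markers summed to 148 and 96.3 CPM, below the 318 and 120 CPM of other Crabp1-low stroma. Summed levels such as these do not tell fewer cells of a type from less RNA per cell. Shares of cells with a UMI are not given here for these lists.

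Genes outside the rule were then compared between Spp1-high cells and other Crabp1-low stroma, each within its own library. Spp1-high cells had more mRNA of Itga11, Rspo3, Fibin, Grem1, Masp1 and Smoc1, and less of Dcn, Igfbp2, Mylk and Actg2. The measured genes were the 5426 that reached 20 CPM in the higher set of each library. Of these, 22 (0.405%) were at least 2-fold higher and 98 (1.81%) at least 2-fold lower in both. A ratio here is the log2 ratio of these summed levels with 0.5 counts added. The median over these genes was 0.04 at 7 days and 0.01 at 1 day. These cells were chosen by their level of 3 genes, so genes that vary with Spp1 were bound to differ, and the ratios describe the set.

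Itga11, the integrin subunit with which fibroblasts hold fibrillar collagen, was 63.1 CPM at 7 days and 58.1 CPM at 1 day in Spp1-high cells. It was 18.6 and 17.2 CPM in other Crabp1-low stroma, 9.18 and 9.49 CPM in Crabp1-high stroma and 16.7 CPM in bladder stroma. The log2 ratio to other Crabp1-low stroma was 1.76 [1.60 to 1.92] at 7 days and 1.76 [1.61 to 1.91] at 1 day. Rspo3, a secreted R-spondin that strengthens Wnt signals, was 36.4 and 30.4 CPM, against 14.2 and 11.8 CPM in other Crabp1-low stroma, with log2 ratios of 1.36 [1.16 to 1.57] and 1.36 [1.16 to 1.56]. Itga11 and Rspo3 were thus higher than in other Crabp1-low stroma in both libraries. They were given as markers of the set with earlier results of these data known, so this is a description. A UMI of Itga11 was found in 52.8% of Spp1-high cells at 7 days and 43.6% at 1 day, and of Rspo3 in 39.5% and 24.6%.

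Among the secreted proteins, Masp1, a serine protease of the lectin pathway of complement, was 47.6 CPM in both libraries, against 6.99 and 8.19 CPM in other Crabp1-low stroma. Smoc1, a calcium-binding matricellular protein, was 36.1 and 32.8 CPM, against 8.19 and 5.67 CPM. Fibin was 162 and 138 CPM, against 48.3 and 50.9 CPM. Grem1, a BMP antagonist, was 144 and 128 CPM, against 65.9 and 41.8 CPM. Stc1, the hormone stanniocalcin 1, was 20.2 and 21.9 CPM, against 5.40 and 2.76 CPM, with 49.3% of its 7-day UMIs in 5 cells. Plau, the urokinase plasminogen activator, was 41.2 and 42.6 CPM, against 20.2 and 12.6 CPM.

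The transcription factor genes Hoxa5 and Foxc1 were among the 22. Hoxa5 was 30.5 and 29.7 CPM, against 11.3 and 9.16 CPM, and Foxc1 24.2 and 20.9 CPM, against 11.2 and 7.96 CPM. Foxd1, a forkhead gene of mesenchyme, was 20.7 and 17.0 CPM, against 4.19 and 3.67 CPM, and fell just short of the 20 CPM minimum at 1 day. Il1rl1, the receptor of interleukin 33, was 25.99 and 24.1 CPM, against 6.55 and 6.60 CPM. It was higher still in Crabp1-high stroma, at 77.8 and 58.2 CPM. Nupr1, a stress-induced nuclear protein, was 648 and 628 CPM, against 316 and 297 CPM. Its 7-day log2 ratio was 1.04, and 0.745 as a mean over cells. The imprinted non-coding RNA H19 was 64.6 and 81.6 CPM, against 23.9 and 26.9 CPM. Crabp2, a carrier of retinoic acid, Cyp1b1, a cytochrome P450, Emb, Alcam, Cd109, Map3k7cl, Prkg2, Stmn2 and 1 predicted gene made up the rest.

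The rule for named genes also took genes short of 2-fold in at least 1 library. Hbegf and Inhba were past 2-fold at 7 days only. Hbegf, a ligand of the EGF receptor, was 222 and 189 CPM, against 88.0 and 99.9 CPM in other Crabp1-low stroma. Inhba, the activin A subunit, was 1162 and 1112 CPM, against 545 and 736 CPM. Prrx2, a homeobox gene of mesenchyme, was 123 and 115 CPM, against 76.3 and 59.5 CPM. Aig1, Acaa2, Specc1, Ercc1 and Msmo1 had log2 ratios from 0.60 to 0.99 across both libraries. Tpm3-rs7, at 1.20 and 0.90, is a tropomyosin-related sequence that may share reads with its parent gene.

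**Figure D3:**
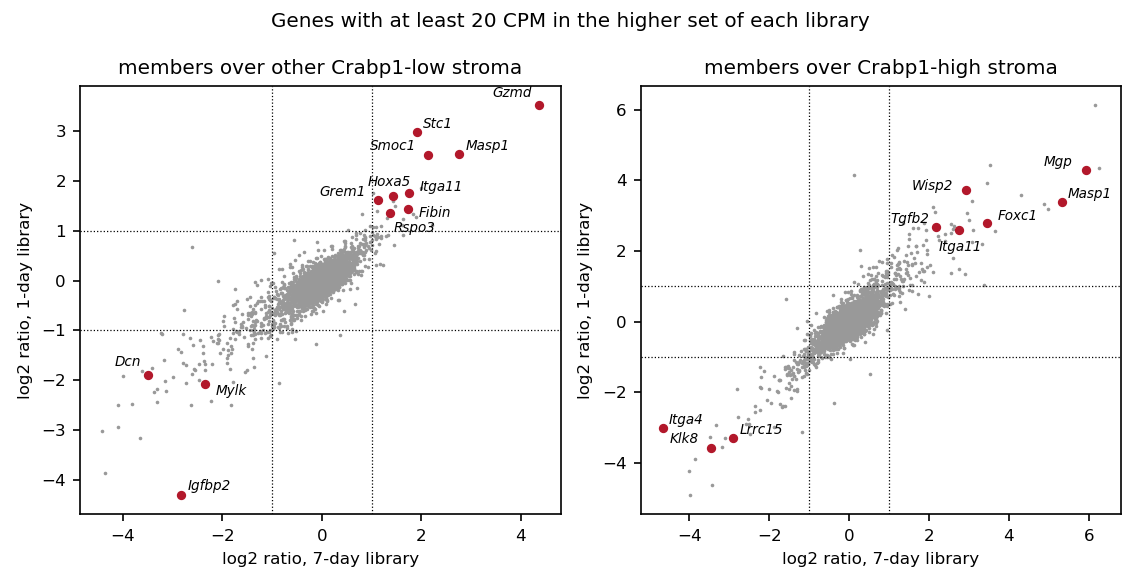
Log2 ratio at 7 days (horizontal axis) against log2 ratio at 1 day (vertical axis), 1 point per measured gene (rule genes left out), for members over other Crabp1-low stroma (left) and over Crabp1-high stroma (right). Dotted lines mark 2-fold, red points are labelled genes of the text (Gzmd, below the minimum, is drawn for reference), Masp1 on the right rests on 3 UMIs in 7-day Crabp1-high cells, and every labelled gene has the same sign in both libraries.

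Among the lower genes were matrix, growth factor binding and contractile genes. Dcn, the proteoglycan decorin, was 204 CPM at 7 days and 133 CPM at 1 day, against 2290 and 495 CPM in other Crabp1-low stroma. Igfbp2 was 14.1 and 5.63 CPM, against 101 and 112 CPM, with log2 ratios of -2.83 [-3.13 to -2.55] and -4.30 [-4.73 to -3.93]. Igfbp4, another binding protein of insulin-like growth factors, was 121 and 61.7 CPM, against 427 and 154 CPM. Mylk, the kinase of smooth muscle myosin light chain, was 69.8 and 91.0 CPM, against 357 and 386 CPM. Actg2, enteric smooth muscle actin, was 440 and 561 CPM, against 1161 and 1458 CPM. Spon2, Heg1, Sparcl1, Gpm6b, Ptgis and Zbtb20 were also among the 12 lowest, with log2 ratios from -3.15 to -1.18.

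The other Crabp1-low set of the 7-day library held 2452 cells with a score of 0 and a median of 4612 UMIs, with Dcn at 3618 CPM. Among cells with at least 10000 UMIs only, 23 genes were at least 2-fold higher and 91 lower. The log2 ratio of Itga11 was then 1.75 at 7 days and 1.74 at 1 day, and that of Rspo3 1.33 and 1.31.

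Of 11 listed osteopontin receptor genes, integrin subunits and Cd44, 5 could be measured in both libraries, and none was past 2-fold. Itgav, the subunit that many osteopontin-binding integrins share, was 114 and 104 CPM in Spp1-high cells, against 120 and 125 CPM in other Crabp1-low stroma. Its partner Itgb5 was 217 and 222 CPM, against 137 and 166 CPM, and Itgb3, under the minimum, was 16.6 and 13.2 CPM, against 7.20 and 7.89 CPM. Cd44 was 292 and 275 CPM, against 229 and 263 CPM, and 559 and 529 CPM in Crabp1-high stroma. The median log2 ratio of the list was 0.09 at 7 days and -0.11 at 1 day.

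Of 27 genes of Wnt signalling, 6 were measured, 0 were higher and 4 lower. Wnt2, a ligand, was 3.69 and 3.61 CPM, against 80.3 and 29.7 CPM in other Crabp1-low stroma, and Wnt4 19.0 and 13.2 CPM, against 41.6 and 37.9 CPM. The secreted Wnt inhibitors Sfrp1, at 49.5 and 35.0 CPM against 173 and 90.9 CPM, and Frzb, at 8.62 and 9.56 CPM against 51.3 and 32.8 CPM, were also lower. Of the R-spondins and their receptors 1 of 9 was measured, Rspo3. Of 16 BMP genes 9 were measured, with Grem1 higher and Bmp4, a ligand, lower at 13.3 and 13.1 CPM against 125 and 27.2 CPM.

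Among matrix genes the small leucine-rich proteoglycans stood out by count, with 3 of 6 measured lower: Dcn, Lum (lumican) and Prelp. Against Crabp1-high stroma 0 of 4 measured were lower, and Ogn was higher. Lum was 18.6 and 8.71 CPM, against 320 and 49.9 CPM in other Crabp1-low stroma. Of 11 measured fibrillar and related collagens outside the rule, 1 was lower, Col14a1, at 24.5 and 14.9 CPM against 153 and 84.2 CPM. Of 18 measured matricellular and elastic genes, 1 was lower, Eln (elastin). Of 16 measured metalloproteinases, plasminogen activators and inhibitors, Plau was higher and Mmp3, Adamts2 and Timp3 lower. Of the 15 contractile genes all were measured and 2 were lower, Actg2 and Myh11, with a list median of -0.14 at 7 days and -0.35 at 1 day.

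Of 12 listed granzyme inhibitors and partners, 6 were measured, 3 were lower and 3 did not pass 2-fold. The lower ones were Serpinb9b at 8.48 and 9.14 CPM against 43.6 and 29.2 CPM, Serpinb6b at 5.06 and 7.33 CPM against 54.97 and 25.04 CPM, and the secreted serpin Serpina3n at 6.02 and 9.35 CPM against 96.7 and 35.4 CPM. Of 11 measured growth factor ligands Igf1, Vegfd and Csf1 were lower. Of 8 measured Hox genes Hoxa5 was higher. None of the measured genes was past 2-fold for hypoxia and glycolysis (18), amino acid stress (12), S phase (6), G2/M outside the rule (5), senescence-linked genes (8), bone formation (2) or the nuclear respiratory chain (15). Across all lists these counts stand beside the 0.405% higher and 1.81% lower of all measured genes.

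Itga11 was higher at high scores than at a score of 0, but not in every step. In Crabp1-low stroma at 7 days, Itga11 was 9.62 CPM in cells with a score of 0, 36.7 CPM from 2 to 5, 53.4 CPM from 10 to 15, 61.0 CPM from 20 to 25 and 72.9 CPM at 80 or more. At 1 day the same bins gave 11.3, 21.2, 37.5, 65.2 and 69.2 CPM. Cells just below the threshold, from 15 to 20, had Itga11 at 39.6 and 47.8 CPM and Rspo3 at 39.6 and 16.6 CPM. Cells just above it, from 20 to 25, had Itga11 at 61.0 and 65.2 CPM and Rspo3 at 30.1 and 42.2 CPM. Among the members themselves the 4 bins of Itga11 ran from 58.4 to 72.9 CPM at 7 days and from 51.3 to 69.2 CPM at 1 day. Gzmd moved unevenly, with 19.1, 1.92, 27.1 and 21.3 CPM in the 4 member bins at 7 days and 7.90, 20.8, 1.88 and 34.1 CPM at 1 day.

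**Figure D4:**
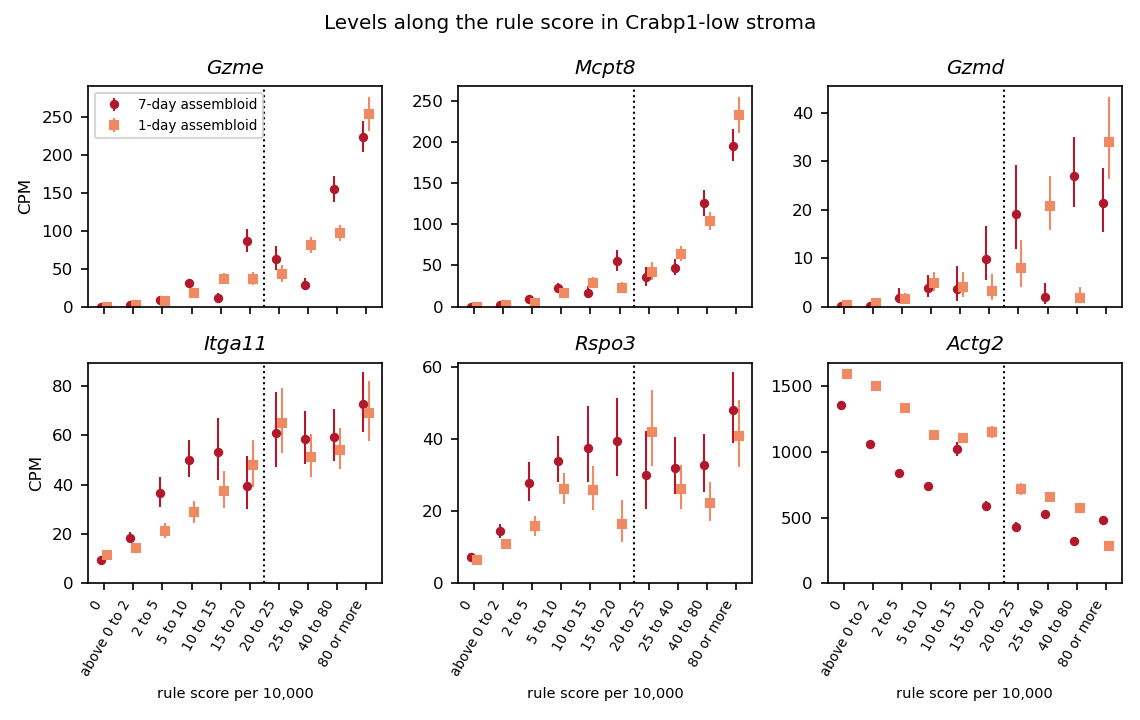
Level in CPM (vertical axis) of 6 genes in bins of the rule score per 10000 UMIs (horizontal axis) for Crabp1-low stroma of the 7-day (circles) and 1-day (squares) libraries, with 95% Poisson intervals and a dotted line at the threshold of 20. Itga11 is already at 53.4 CPM from 10 to 15 at 7 days, Actg2 is lower to the right of the line than at a score of 0 in both libraries, and Gzme and Mcpt8 are part of the score.

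Stromal cells of both assembloid libraries, cycling and Crabp1-high cells included, were clustered without the 13 rule genes, and 22 clusters were found. Cluster 2 held 57.1% of Spp1-high cells, 60.1% of those at 7 days and 55.5% at 1 day, and 41.0% of its 1113 cells were Spp1-high. Cluster 1 held 16.5% and cluster 0 held 12.8%. The rest lay in 13 other clusters with between 1 and 23 Spp1-high cells each. Cluster 18, with Lyz2, Cd74 and Tyrobp among its leading genes, had 12 Spp1-high cells in 95 (12.6%). Cluster 5, led by Clec3b, Fmo2 and Pi16, had 1 in 615 cells, all of the 7-day library. With each library clustered alone, the cluster with most Spp1-high cells held 64.2% of them at 7 days and 57.0% at 1 day. The rule thus took cells from several transcriptional neighbourhoods, with one holding more than 1 in 2.

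The gene pattern of the set differed with the neighbourhood. Cluster 2 was led by Map3k7cl, Smoc1, Itga11, Hoxa5, Masp1 and Rspo3, genes by which the clustering itself sets it apart. In it, Itga11 was 86.9 and 83.9 CPM in Spp1-high cells and 80.6 and 75.1 CPM in other Crabp1-low cells at 7 days and 1 day. Rspo3 was 50.02 and 41.9 CPM, against 52.9 and 55.7 CPM, and Hoxa5 42.6 and 43.8 CPM, against 60.6 and 50.8 CPM. Foxd1 was 28.6 and 27.7 CPM, against 29.6 and 29.0 CPM. In cluster 2 these 4 genes were at similar or higher levels in cells below the score threshold. Outside cluster 2, Spp1-high cells had little Smoc1: 1.25 and 0.719 CPM in cluster 1, and 0 and 2.76 CPM in cluster 0.

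Protease levels in members and other cells are given by cluster as a description, since both genes are part of the score. In cluster 2 Gzme was 111 [101 to 121] and 125 [116 to 135] CPM in Spp1-high cells, against 23.9 [20.4 to 27.9] and 17.7 [14.8 to 21.1] CPM in other Crabp1-low cells. Mcpt8 was 123 and 147 CPM, against 22.0 and 20.4 CPM. In cluster 1, with 57 and 75 Spp1-high cells, Gzme was 231 and 199 CPM, against 6.55 and 7.91 CPM, and Gzmd 48.6 and 52.5 CPM, against 0.504 and 2.11 CPM. In cluster 0, with 18 and 84 Spp1-high cells, Gzme was 0 and 53.8 CPM, against 0.363 and 2.85 CPM. Grem1 was higher in Spp1-high cells in each of the 3 clusters, with 134 and 121 CPM against 65.3 and 70.1 CPM in cluster 2, 203 and 214 CPM against 87.9 and 64.1 CPM in cluster 1, and 141 and 111 CPM against 53.8 and 32.1 CPM in cluster 0.

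**Figure D5:**
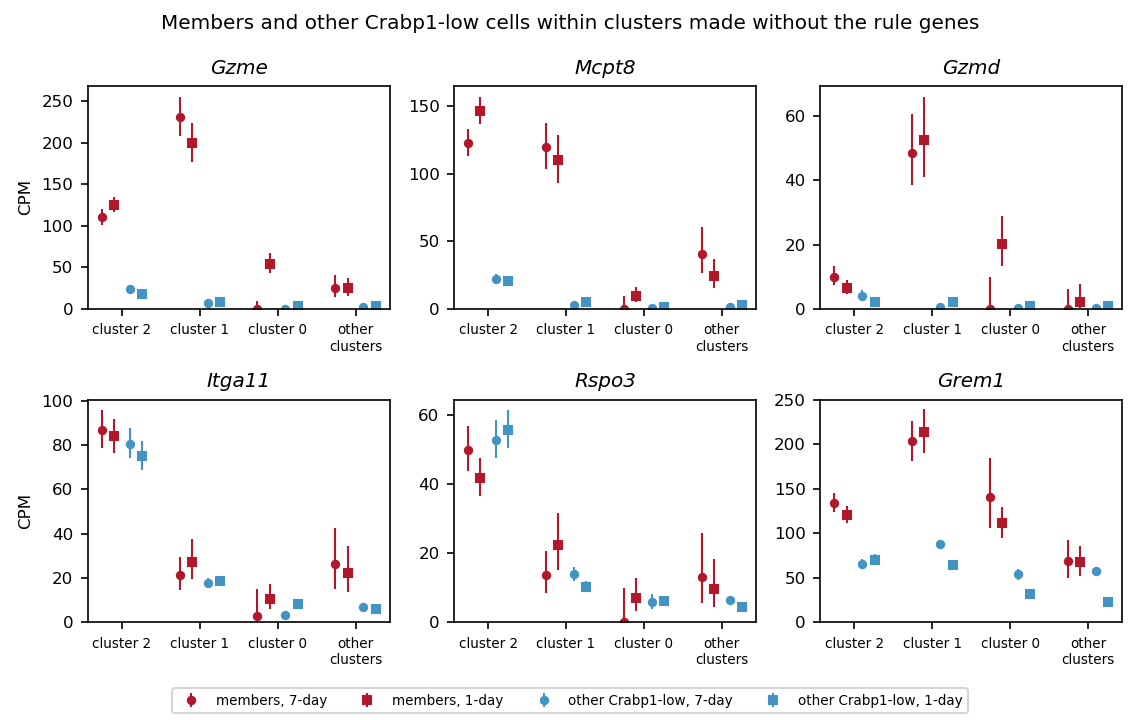
Level in CPM (vertical axis) of 6 genes in members (red) and other Crabp1-low cells (blue) of clusters 2, 1 and 0 and of the remaining clusters (horizontal axis), with circles for 7 days, squares for 1 day and 95% Poisson intervals. In cluster 2 Itga11 lies between 75.1 and 86.9 CPM in all 4 points, while Gzme is above 100 CPM only in the members.

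Within cluster 2 alone, 8 of 5220 measured genes (0.153%) were at least 2-fold higher in Spp1-high cells in both libraries and 4 (0.0766%) lower. The 8 were Il1rn, Crabp2, Nsg1, U90926, Irx3, Ccnb2, Gsta4 and Cxcl14, and the 4 were Des, Mylk, Ppp1r14a and Chchd10. Il1rn, the interleukin 1 receptor antagonist, was 21.2 and 22.7 CPM, against 2.92 and 3.91 CPM. Irx3, an Iroquois homeobox gene, was 35.4 and 24.8 CPM, against 4.52 and 8.24 CPM. Cxcl14, a chemokine, was 42.4 and 20.6 CPM, against 5.83 and 7.26 CPM. Des, the muscle intermediate filament desmin, was 18.02 and 36.7 CPM, against 142 and 183 CPM. Over clusters 2, 1 and 0 together, 18 of 5318 genes (0.338%) were higher and 42 (0.79%) lower. Both comparisons were added after the data had been seen.

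Over the 22 clusters, the genes whose level most resembled that of the summed trio were Txnl4a, Hint1, Pdcd5, Hmga2, Zwint, Tomm20, Denr and Ppp1r11, with Pearson correlations of log2(CPM + 1) from 0.909 to 0.947. The clusters share libraries, differ in depth and in cycling cells, and were not independent. Itga11 was also high in a cluster with no Spp1-high cell: cluster 12, 190 cells of the 7-day library, had Itga11 at 75.1 CPM and Spp1 at 12.2 CPM.

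Spp1-high cells were split by their protease UMIs to describe how they vary. At least 3 UMIs of Gzme and Mcpt8 together were found in 85 cells at 7 days and 138 at 1 day, and none in 141 and 301. Of 5323 measured genes, 6 (0.113%) were at least 2-fold higher in protease-positive cells in both libraries and 19 (0.357%) lower. Itga11 was 90.04 and 80.7 CPM in protease-positive cells, against 36.8 and 42.8 CPM in cells with none. Its log2 ratio at 1 day, 0.91 [0.64 to 1.19], was short of 2-fold. Smoc1 was 55.8 and 57.9 CPM, against 18.7 and 20.9 CPM, and Foxd1 33.9 and 34.5 CPM, against 10.6 and 8.76 CPM. Gzmd was 46.0 and 48.8 CPM, against 0 and 0.199 CPM. Plau was 56.1 and 67.1 CPM, against 27.0 and 24.5 CPM, and Isg15, an interferon-induced ubiquitin-like protein, 84.4 and 33.7 CPM, against 19.2 and 16.7 CPM.

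Of the 19 genes that were lower, 4 are given, chosen after their values were seen. Sfrp1 was 9.04 and 12.5 CPM in protease-positive cells, against 92.8 and 54.4 CPM in those with none. Col15a1, a basement membrane collagen, was 3.77 and 15.04 CPM, against 94.5 and 40.6 CPM. Postn (periostin) was 64.4 and 61.6 CPM, against 147 and 142 CPM, and Apoe, apolipoprotein E, 9.80 and 15.4 CPM, against 44.8 and 149 CPM. Protease-positive cells were deeper, with medians of 29806 and 18893.5 UMIs against 25005 and 16294. With cells of at least 10000 UMIs only, 6 genes were higher and 14 lower. The split was not made within clusters, and their part in it was not tested.

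Against Crabp1-high stroma, the other assembloid stroma, 107 of 5435 measured genes (1.97%) were at least 2-fold higher in Spp1-high cells in both libraries and 103 (1.9%) lower. The Crabp1 clause of the rule separates these sets, so genes that vary with Crabp1 are bound to be among them. Mgp, matrix Gla protein, which inhibits calcification, was 2153 and 2212 CPM in Spp1-high cells at 7 days and 1 day, against 35.3 and 112 CPM in Crabp1-high stroma. Col3a1 was 996 and 847 CPM, against 278 and 311 CPM. Tgfb2, a transforming growth factor, was 143 and 129 CPM, against 31.3 and 20.2 CPM. Il11, a cytokine of the interleukin 6 family, was 186 and 218 CPM, against 43.2 and 81.6 CPM, and Cxcl12, a chemokine, 231 and 155 CPM, against 56.4 and 50.9 CPM. Wisp2, Nupr1, Plac8, Lrrc32, Plpp1 and Mfap5 were the others named, with log2 ratios from 1.51 to 3.73.

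Lower in Spp1-high cells were Klk8, a kallikrein protease, at 13.3 and 14.9 CPM against 145 and 176 CPM, and Lrrc15, a membrane protein of activated fibroblasts, at 20.8 and 14.6 CPM against 155 and 144 CPM. Itga4, an osteopontin-binding integrin subunit, was 1.09 and 3.19 CPM, against 29.2 and 25.9 CPM, the only osteopontin receptor of 6 measured that was past 2-fold. Hmga2, a chromatin protein of embryonic and dividing cells, was 416 and 401 CPM, against 870 and 920 CPM. Crispld2, Flrt2, Galnt18, Chst2, Emp1, Gng11, Siglecg, Ctla2a and Klf4 had log2 ratios from -2.90 to -1.40. Of 4 measured collagen receptors Itga11 and Itga1 were higher. Sfrp1, Igfbp4 and Adamts2, lower against other Crabp1-low stroma, were at least 2-fold higher against Crabp1-high stroma. Rspo3 was 36.4 and 30.4 CPM, against 22.1 and 13.3 CPM, a log2 ratio of 0.71 at 7 days and 1.18 at 1 day.

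Spp1-high cells at 7 days and at 1 day were close to each other. Of 5407 genes with at least 20 CPM in either library, 99.0% lay within 0.5 on the log2 scale, 7 (0.129%) were at least 2-fold higher at 7 days and 7 (0.129%) lower. Spp1, Gzme and Mcpt8 are given above, and Itga11 and Rspo3 had log2 ratios of 0.12 and 0.26. Age and library cannot be told apart, since each age was 1 library.

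Higher at 7 days were Ptn, Gstm1, Mmp3, Col10a1, Fosb, Hspa1a and Upk3a. Ptn, the growth factor pleiotrophin, was 135 CPM at 7 days and 41.7 CPM at 1 day. Its log2 ratio was 1.70, and 61.7% of its 7-day UMIs lay in 5 cells. Gstm1, a glutathione transferase, was 139 and 46.2 CPM, with a UMI in 78.6% and 33.3% of cells. In other Crabp1-low stroma Gstm1 was 324 CPM at 7 days and 45.7 CPM at 1 day. Its log2 ratio among Spp1-high cells was 1.58, and across the alternatives it ran from 0.88 with the threshold at 40 to 2.49 with a Gzme or Mcpt8 UMI required, with 1.13 without called doublets. Upk3a, a urothelial plaque protein, was 33.7 and 1.06 CPM in Spp1-high cells and 59.7 and 0.730 CPM in other Crabp1-low stroma. Hspa1a was 20.1 and 6.59 CPM, beside 224 and 9.62 CPM in other Crabp1-low stroma. The part of these library-wide differences in the ratios of Spp1-high cells was not tested.

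Lower at 7 days were Timp3, Apoe, Ccl8, Ctla2a, Sostdc1, Sprr2a3 and Tnfsf15. Timp3, an inhibitor of metalloproteinases, was 172 CPM at 7 days and 346 CPM at 1 day. Its log2 ratio was -1.01 [-1.11 to -0.92]. Its ratio was between -0.99 and -0.94 under 5 other settings, so it lay at the 2-fold line. Cryab, a small heat shock protein, was 261 and 454 CPM, and Lbh 125 and 186 CPM, both short of 2-fold. The counts themselves were unstable: with cells of at least 10000 UMIs, or with mitochondrial UMIs under 10%, 3 genes were lower, and as a mean over cells 17 were higher and 24 lower.

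Against bladder stroma, 1000 of 6692 measured genes (14.9%) were at least 2-fold higher in Spp1-high cells of both libraries and 1471 (22.0%) lower. Library and tissue cannot be told apart in this comparison, and both ratios share the bladder library. Grem1 was 144 CPM at 7 days and 128 CPM at 1 day, against 0.144 CPM in bladder stroma. Inhba was 1162 and 1112 CPM, against 11.8 CPM, and Hmga2 416 and 401 CPM, against 0.215 CPM. Itga11 and Rspo3 were also higher, with log2 ratios of 1.92 and 1.80 for Itga11 and 1.98 and 1.72 for Rspo3. Lower were all 19 measured immediate early genes, with Fos at 41.9 and 24.8 CPM against 3042 CPM, and 7 of 8 measured small leucine-rich proteoglycans, with Dcn at 204 and 133 CPM against 14623 CPM. Of 9 measured Hox genes, Hoxa5, Hoxb9, Hoxc6, Hoxc8 and Hoxc9 were higher and Hoxa10, Hoxa11 and Hoxa13 lower. Hoxa13, a gene of the hindgut and urogenital end of the body, was 1.92 and 1.49 CPM, against 31.1 CPM.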

How the data were processed

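Single-cell libraries (10x Chromium 3′, polyadenylated RNA, per the labels) of 7-day assembloids, 1-day assembloids and bladder were read from the deposited matrices of raw UMI counts per gene and barcode. Cell Ranger 3.1.0 made these counts, per the file headers. The submitters' processing notes name the builds GRCh38, mm10 and hg38; how each was used is not given in the sources used here. Barcodes were kept with at least 90% mouse UMIs, 500 genes and at most 20% mitochondrial UMIs. UMIs were summed per set of cells and library and scaled to CPM. With 1 library per group there was no test: a gene was called past 2-fold from 20 CPM in the higher set, in the same direction in both libraries, and the ratio code was tested on simulated data. Cells were clustered with leidenalg 0.10.2 (2000 variable genes without the rule genes, 30 components, 15 neighbours, resolution 1). Doublets were called with Scrublet in scanpy 1.11.5 but kept. Named genes were the 12 with the largest smaller ratio in each direction among those with 100 CPM in the higher set, up to 4 genes of each list, and all of the receptor and protease locus lists. Other genes were named after their values were seen, and the promoter words after the sequences were read. A few genes that the rule names are not reported here. The members and gene lists were chosen with earlier results of these data known. Intervals cover counting error only, and sequences are RefSeq's. Alternatives covered the score threshold, filters on cells, the CPM minimum, the added counts, centring and clustering.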

Additional observations from a re-analysis of the deposited data

How the results depend on the processing

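With the score threshold at 40 the set held 151 cells at 7 days and 289 at 1 day, and with it at 10 it held 799 at 1 day. Against other Crabp1-low stroma, a minimum of 100 CPM left 4 genes higher and 17 lower, no minimum gave 940 and 873, requiring a Gzme or Mcpt8 UMI gave 39 higher, cluster 2 alone gave 8 and 4, and the 3 clusters with most Spp1-high cells gave 42 lower (the comparisons within clusters were chosen after seeing the data). Against Crabp1-high stroma the counts were 21 and 29 with a minimum of 100 CPM and 777 and 546 with none. Between Spp1-high cells at 7 days and 1 day, 12 were higher with the threshold at 10, 3 lower with at least 10000 UMIs or with mitochondrial UMIs under 10%, 17 higher and 24 lower as a mean over cells, 2 and 1 with a minimum of 100 CPM and 1590 and 1749 with none. Against bladder stroma they were 399 and 427 with a minimum of 100 CPM and 2122 and 5489 with none. Clustering the 7-day library alone put 64.2066% of its Spp1-high cells in 1 cluster. The cause of these shifts was not tested, except that a minimum changes how many genes are measured. The balance of higher and lower genes thus turned without a minimum against other Crabp1-low stroma (22 and 98 with it) and at 100 CPM against Crabp1-high stroma (107 and 103 at 20 CPM). None of 1316 alternative values of the named genes that were at least 2-fold changed sign, and 18 were under 2-fold. These values include settings that could not turn a ratio. The minimum of 100 CPM and no minimum leave each ratio as it was, and centring shifts all ratios of a comparison by the same small amount. Within cluster 2, which those values do not cover, Rspo3 and Hoxa5 were lower in Spp1-high cells. No paired analysis was possible because each group was 1 library. Depth limits genes under 20 CPM, for which no ratio was read.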
